A study of Homo sapiens with 7 samples.

Results

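The microtubule, motor and centrosome introns are 65 introns of 31 genes, out of 6709 introns of 2979 genes for which a splice index was deposited. They were chosen by gene symbol: genes beginning with KIF (kinesins, 23 introns of 6 genes), DYNC1 (cytoplasmic dynein, 10 introns of 2 genes), DCTN (dynactin, 5 introns of 3 genes), MYO and a digit (myosins, 9 introns of 6 genes), TUBA (alpha-tubulins, 2 introns of 2 genes), TUBB (beta-tubulins, 8 introns of 5 genes), TUBG (gamma-tubulin and a gamma-tubulin complex protein, 3 introns of 2 genes) and CEP and a digit (centrosomal proteins, 5 introns of 5 genes). No measured value entered this choice. The libraries came from human RPE1 cells, an immortalised line of retinal pigment epithelium, and all of them carried the inducible Cas9 and the double knockout of p53 and the puromycin resistance gene that the line's name (RPE1 iCas9 p53/puro-dKO) gives. The groups were CFAP20-KO (3 libraries), CFAP20-KO cells rescued with CFAP20-GFP (1 library) and WT (3 libraries). RNA made during a 30 min pulse of 2 mM bromouridine was captured with an antibody to the label and sequenced in paired 151 bp reads. The labels do not say whether the CFAP20-KO cells were 1 clone or whether replicates were grown separately. The p-values therefore rest on how these libraries varied, and that variation may be technical.

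Alpha- and beta-tubulin form the dimers that polymerise into microtubules, and gamma-tubulin in its ring complex nucleates them, mostly at the centrosome. Kinesins and dynein are motors that walk along microtubules, dynein with the help of dynactin, and several kinesins build and divide the mitotic spindle. Myosins are motors on actin filaments, and were measured here as a family of motors that does not use microtubules. CFAP20, the deleted gene, encodes a protein known from the microtubule doublets of cilia and flagella. Introns are removed from the growing transcript by the spliceosome, which pairs the GT at the 5′ end of an intron (the donor) with the AG at its 3′ end (the acceptor).

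The splice index is a number between 0 and 1 per intron and library. The counting of reads behind it is not given here, so it is reported as higher or lower and not as a share of spliced molecules. The number of reads behind each value is unknown, and no counting interval can be given. A number shared between column names puts CFAP20-KO replicate 1 and WT replicate 1 together (run A here), rescue and WT replicate 2 (run B), and CFAP20-KO replicates 2 and 3 and WT replicate 3 (run C). What this number marks, a sequencing run or another batch, is not stated, and run is only a name for it here. The median index over all introns was 0.508 and 0.530 in the 2 libraries of run A and 0.642 to 0.723 in the other 5, so run moves with the level. Among the CFAP20-KO and WT libraries, CFAP20-KO replicates 2 and 3 were the most alike pair (r = 0.966 over introns), and the next pair had r = 0.931. Rescue was not compared in this way. No intron of CFAP20 was among the measured introns, nor was the gene in the signal windows used below, so the deletion could not be checked here.

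The member introns had a higher median index than all introns in each of the 7 libraries. The median over members was 0.634, 0.724 and 0.750 in CFAP20-KO, 0.777 in rescue and 0.667, 0.771 and 0.769 in WT, against 0.508, 0.703 and 0.676 in CFAP20-KO, 0.723 in rescue and 0.530, 0.691 and 0.642 in WT over all introns. This is a description, since introns of a gene share its transcripts. The sets differ in make-up. Introns numbered above 20 were 13 of 65 members and 182 of 6709 introns. Outside the transcript that Ensembl marks as canonical were 13.8% of members and 20.1% of all introns. Among introns numbered 2 to 5 the member median was lower, as in WT replicate 2 (0.605 against 0.696), except in WT replicate 1 (0.563 against 0.56). In the other number classes it was higher in every library. Of the members with all WT values, 15 had a mean WT index of at least 0.9, which is 23.4% of members against 8.62% of all introns, and 5 had one under 0.2, which is 7.81% against 14.7%.

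**Figure D1:**
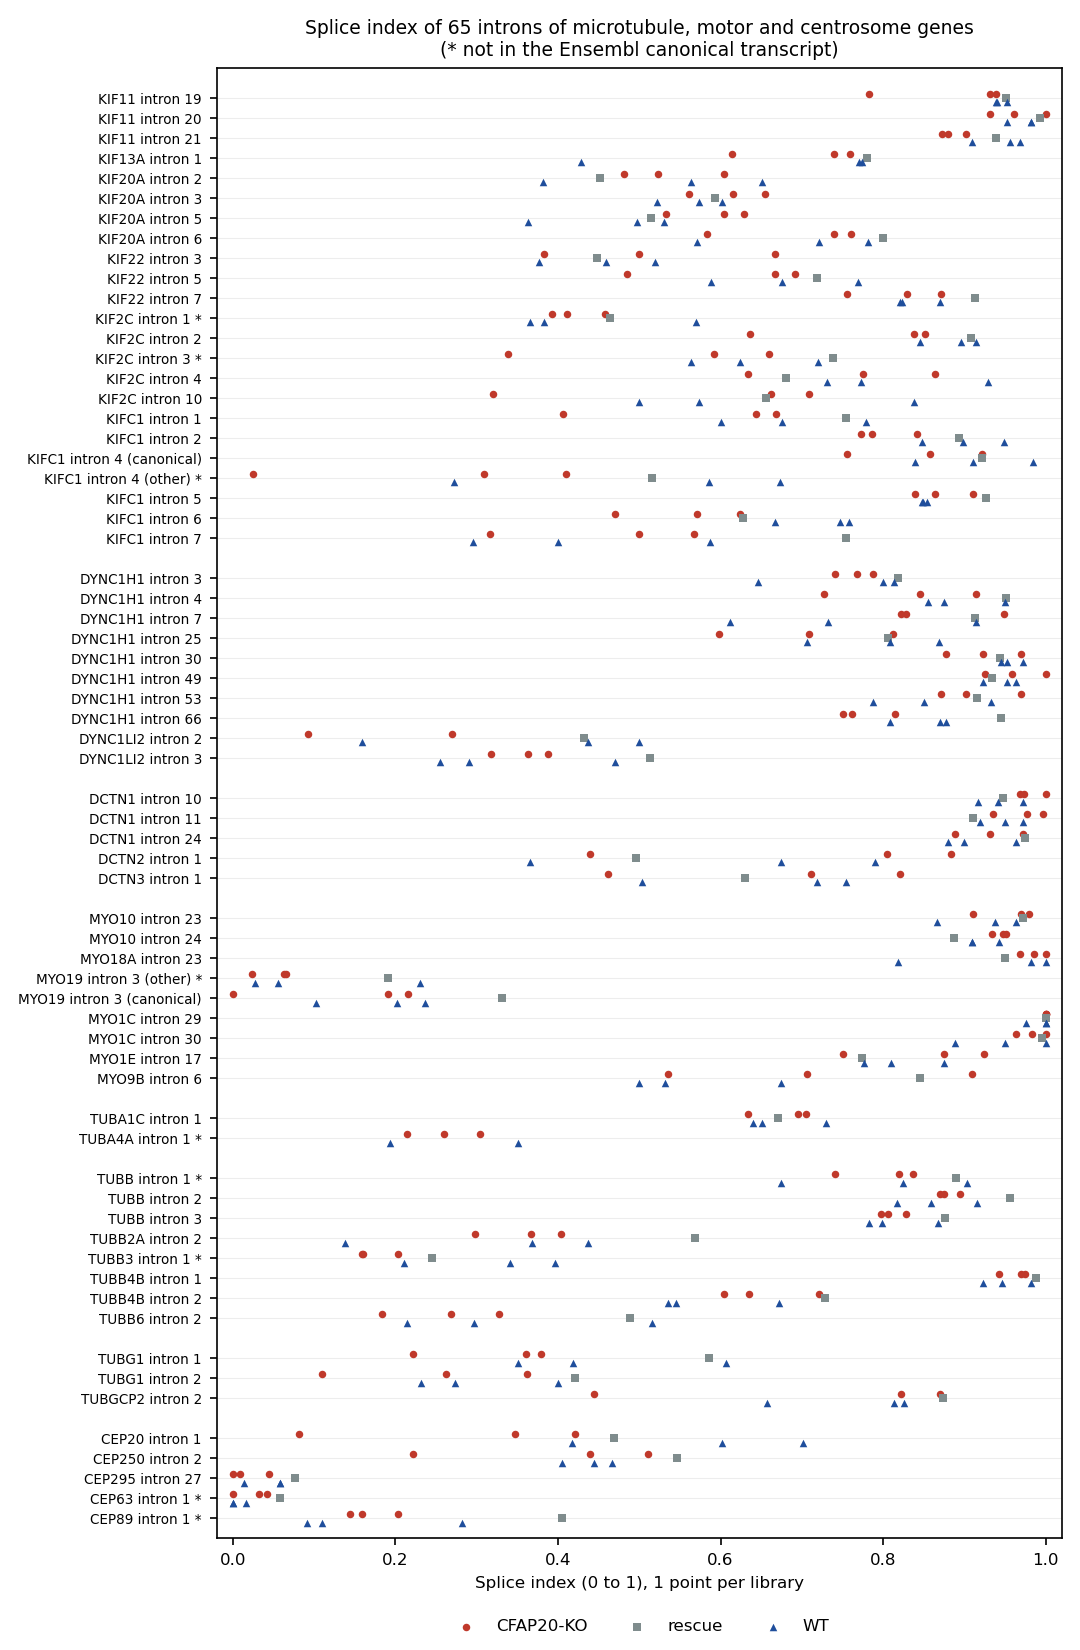
Splice index (horizontal axis, 0 to 1) of each of the 65 introns, 1 point per library: circles for CFAP20-KO, squares for rescue and triangles for WT. Introns of KIF11, DCTN1, MYO10, MYO18A and MYO1C crowd the right edge, those of CEP63, CEP295 and MYO19 the left, and in most rows the groups overlap.

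The families stood at different levels. The median over myosin introns was 0.911, 0.951 and 0.934 in CFAP20-KO, 0.887 in rescue and 0.818, 0.866 and 0.909 in WT. Dynactin introns had medians of 0.889, 0.971 and 0.931 in CFAP20-KO, 0.911 in rescue and 0.9, 0.880 and 0.919 in WT. Dynein introns followed with 0.787, 0.902 and 0.818 in CFAP20-KO, 0.914 in rescue and 0.804, 0.873 and 0.811 in WT. These 3 families overlapped one another in level. Kinesin introns had lower medians of 0.605, 0.668 and 0.667 in CFAP20-KO, 0.754 in rescue and 0.667, 0.770 and 0.747 in WT. Beta-tubulin introns lay in the same range, with 0.731, 0.705 and 0.717 in CFAP20-KO, 0.802 in rescue and 0.610, 0.770 and 0.667 in WT. The 5 centrosomal introns were lowest, with medians of 0.0816, 0.144 and 0.204 in CFAP20-KO, 0.406 in rescue and 0.0915, 0.283 and 0.11 in WT. The families also differ in make-up. DYNC1H1 gave 8 of the 10 dynein introns. Myosin introns include MYO10 introns 23 and 24, MYO18A intron 23 and MYO1C introns 29 and 30. The others are MYO1E intron 17, MYO9B intron 6 and both introns 3 of MYO19. The CEP introns were CEP20, CEP63 and CEP89 intron 1, CEP250 intron 2 and CEP295 intron 27. Those of CEP63 and CEP89 lie outside the canonical transcript. The part of number and gene in these levels was not tested.

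Introns numbered above 20 had higher indices than first introns in all 7 libraries. The median of the 14 first introns was 0.4 to 0.536 in CFAP20-KO, 0.586 in rescue and 0.391 to 0.701 in WT. The 26 introns numbered 2 to 5 had medians of 0.483 to 0.655 in CFAP20-KO, 0.637 in rescue and 0.563 to 0.662 in WT. In WT replicate 2 they were below the first introns, at 0.605 against 0.701. The 12 introns numbered 6 to 20 had 0.769 to 0.897 in CFAP20-KO, 0.878 in rescue and 0.771 to 0.830 in WT. The 13 introns numbered above 20 reached 0.925 to 0.951 in CFAP20-KO, 0.944 in rescue and 0.9 to 0.942 in WT. Spearman's rho between number and index was 0.51 to 0.57 over the members in the 7 libraries (64 or 65 introns per library, many of them from the same genes), and 0.41 to 0.48 over all introns.

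Length gave a weaker order. The 17 members under 150 bp had medians of 0.750 to 0.786 in CFAP20-KO, 0.893 in rescue and 0.809 to 0.868 in WT, and the 22 of 150 to under 500 bp had 0.750 to 0.861 in CFAP20-KO, 0.899 in rescue and 0.809 to 0.861 in WT. The 12 of 500 to under 2000 bp had 0.416 to 0.605 in CFAP20-KO, 0.547 in rescue and 0.405 to 0.588 in WT, and the 14 of 2000 bp or more had 0.372 to 0.647 in CFAP20-KO, 0.676 in rescue and 0.547 to 0.688 in WT. Over the members rho between length and index was -0.34 to -0.24, and over all introns it was -0.06 to 0.04. Among members under 500 bp, the 22 introns numbered 1 to 5 had medians of 0.679 to 0.762 in CFAP20-KO, 0.799 in rescue and 0.666 to 0.784 in WT, and the 17 later ones had 0.925 to 0.959 in CFAP20-KO, 0.944 in rescue and 0.889 to 0.933 in WT. Among members numbered 1 to 5, the 18 of 500 bp or more had medians of 0.270 to 0.458 in CFAP20-KO, 0.496 in rescue and 0.366 to 0.570 in WT, below the 22 shorter ones in 7 of 7 libraries.

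Introns outside the transcript that Ensembl marks as canonical for the gene had lower indices. There were 9 such members, and their median was 0.160 to 0.304 in CFAP20-KO, 0.435 in rescue and 0.211 to 0.483 in WT. The 56 canonical members had medians of 0.734 to 0.807 in CFAP20-KO, 0.812 in rescue and 0.731 to 0.796 in WT. These sets differ in number too, since all 9 introns outside the canonical transcript are numbered 1 to 5. The 31 canonical members numbered 1 to 5 had medians of 0.485 to 0.668 in CFAP20-KO, 0.671 in rescue and 0.588 to 0.676 in WT. Over all introns the medians were 0.130 to 0.266 in CFAP20-KO, 0.357 in rescue and 0.168 to 0.350 in WT outside the canonical transcript, and 0.608 to 0.771, 0.783 and 0.629 to 0.750 within it. The order by number held among the canonical members as well, with rho of 0.49 to 0.56.

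**Figure D2:**
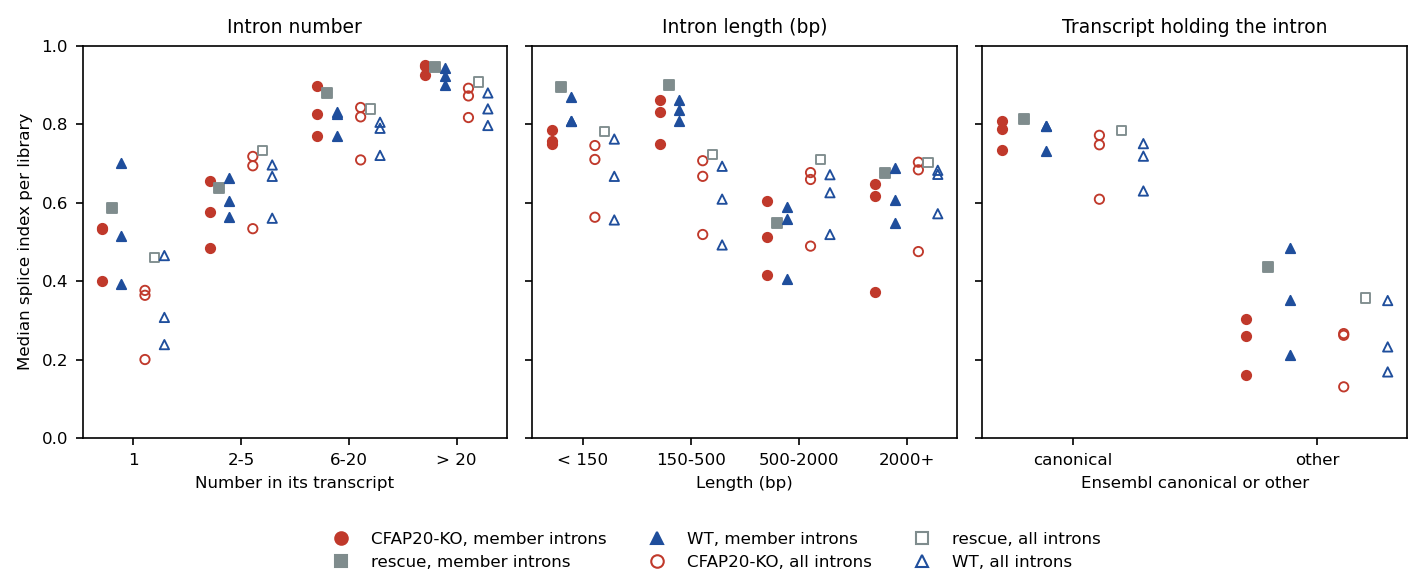
Median splice index per library (vertical axis) by intron number, intron length in bp and transcript, for the member introns (filled) and all introns (open): circles for CFAP20-KO, squares for rescue and triangles for WT. Medians of introns numbered above 20 lie above those of first introns in all 7 libraries and both sets (among members 0.9 to 0.951 against 0.391 to 0.701), and medians are lower outside the canonical transcript.

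Among the kinesins, the 3 introns of KIF11, the bipolar motor that pushes spindle poles apart, were near the top of the scale. KIF11 intron 20 had 1, 0.961 and 0.932 in CFAP20-KO, 0.993 in rescue and 0.982, 0.982 and 0.952 in WT, the highest mean WT index among kinesin introns. KIF11 introns 19 and 21 had 0.783 to 0.939 and 0.873 to 0.902 in CFAP20-KO, and 0.938 to 0.953 and 0.909 to 0.968 in WT. KIF13A intron 1, of a motor for endosomal cargo, had 0.759, 0.614 and 0.739 in CFAP20-KO, 0.780 in rescue and 0.774, 0.770 and 0.429 in WT.

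KIFC1, a kinesin that moves towards microtubule minus ends and bundles spindle microtubules, had 7 introns measured. KIFC1 introns 2 and 5 lay between 0.773 and 0.948 in the 7 libraries, and KIFC1 intron 7 between 0.295 and 0.754, the lowest mean WT index among kinesin introns. Intron 5 was above intron 7 in 7 of 7 libraries. The number 4 is given to 2 introns from different transcripts. The canonical one (chr6:33403368-33403484) had 0.756, 0.922 and 0.857 in CFAP20-KO, 0.921 in rescue and 0.839, 0.911 and 0.984 in WT. The other (chr6:33400515-33403313) ends upstream of it and had 0.0247, 0.310 and 0.410 in CFAP20-KO, 0.515 in rescue and 0.273, 0.585 and 0.673 in WT. The canonical one was higher in 7 of 7 libraries.

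KIF2C, which takes tubulin off microtubule ends, had 5 introns measured. KIF2C intron 2 (0.636 to 0.852 in CFAP20-KO, 0.908 in rescue, 0.845 to 0.914 in WT) was above introns 1 and 3, both outside the canonical transcript, in 7 of 7 libraries. KIF2C intron 1 had 0.393 to 0.458 in CFAP20-KO, 0.464 in rescue and 0.366 to 0.570 in WT, and KIF2C intron 3 had 0.338 to 0.660 in CFAP20-KO, 0.738 in rescue and 0.563 to 0.720 in WT. In KIF22, a kinesin that binds chromosomes, the index climbed from intron 3 (0.377 to 0.667 over the 7 libraries) to intron 5 (0.485 to 0.769) to intron 7 (0.756 to 0.913), in that order in 7 of 7 libraries. KIF20A, needed for cytokinesis, had 4 introns in a middle range, and KIF20A intron 6 (0.571 to 0.800) was above intron 2 (0.382 to 0.651) in 7 of 7 libraries.

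DYNC1H1, the heavy chain that holds the motor of cytoplasmic dynein, had 8 introns from number 3 to number 66 of 77. DYNC1H1 intron 30 was the highest by mean WT index, with 0.970, 0.923 and 0.877 in CFAP20-KO, 0.944 in rescue and 0.952, 0.945 and 0.971 in WT. It was above introns 3 (0.646 to 0.818) and 25 (0.598 to 0.868) in 7 of 7 libraries. Introns 49 and 53 lay between 0.788 and 1, and introns 4, 7 and 66 between 0.611 and 0.951. The light intermediate chain gene DYNC1LI2, whose product links dynein to cargo adaptors, was far lower: its intron 3 had 0.317, 0.364 and 0.388 in CFAP20-KO, 0.513 in rescue and 0.255, 0.470 and 0.291 in WT. DYNC1LI2 intron 2 had 0.0923 and 0.270 in CFAP20-KO, with no value in replicate 2, 0.432 in rescue and 0.159, 0.5 and 0.438 in WT.

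In dynactin, the 3 introns of DCTN1, which encodes the subunit that binds dynein and microtubules, lay between 0.880 and 1. DCTN2 intron 1, of the subunit dynamitin, had 0.439, 0.883 and 0.805 in CFAP20-KO, 0.496 in rescue and 0.365, 0.674 and 0.789 in WT. DCTN3 intron 1, of a small shoulder subunit, had 0.462, 0.820 and 0.712 in CFAP20-KO, 0.630 in rescue and 0.504, 0.754 and 0.718 in WT. In both, the libraries of run A were lowest.

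**Figure D3:**
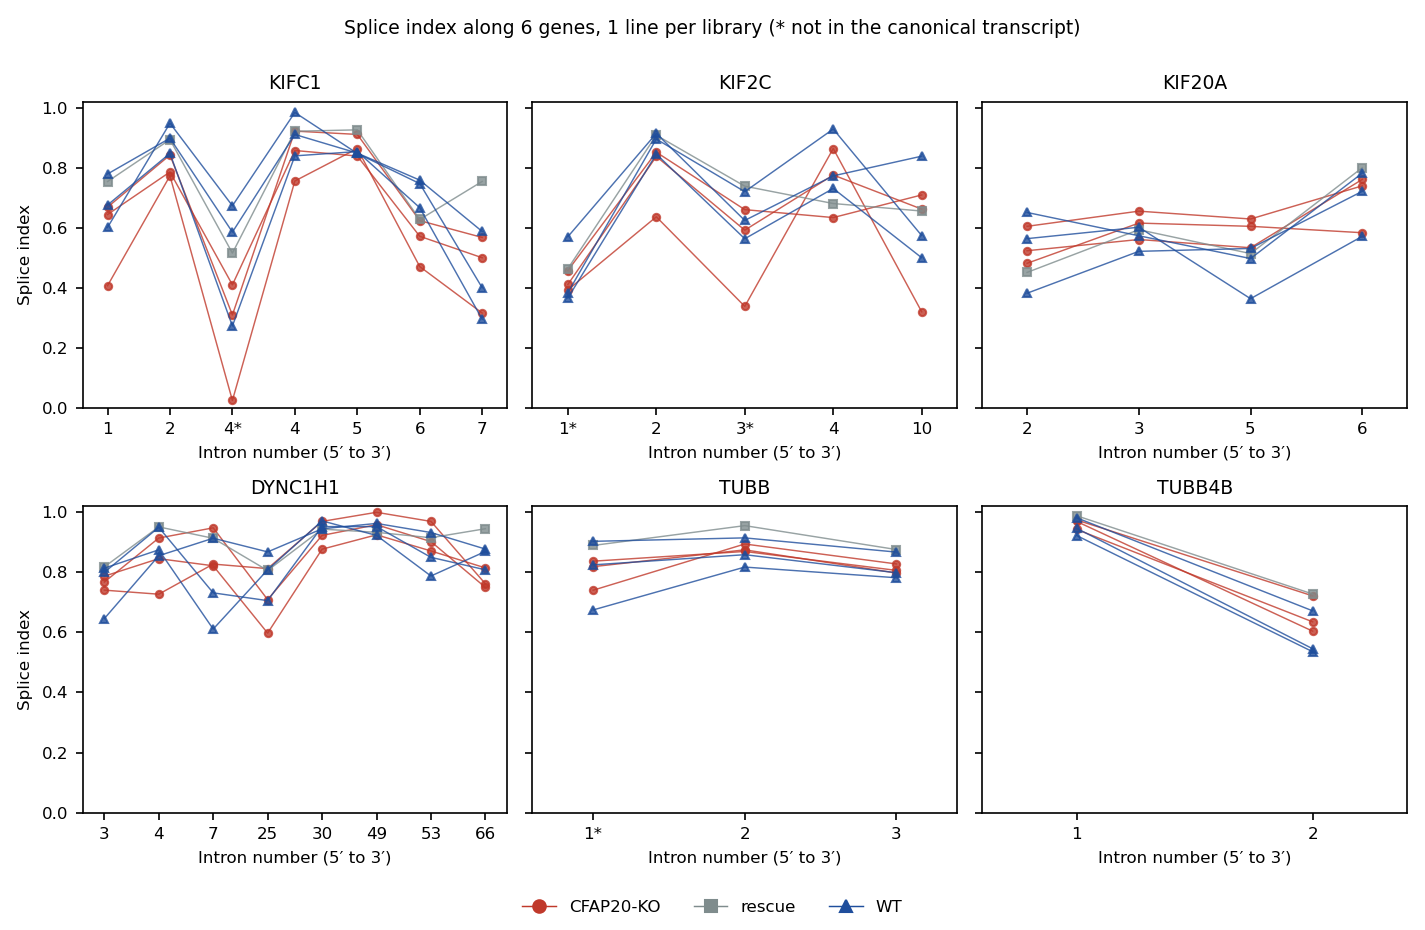
Splice index (vertical axis) of the measured introns of 6 genes in 5′ to 3′ order (horizontal axis, intron number), 1 line per library in the colours of the key. Introns of a gene keep much of their order across libraries: KIFC1 intron 4 outside the canonical transcript is under the canonical intron 4 in 7 of 7 libraries, and TUBB4B intron 2 under intron 1 in 7 of 7.

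The myosins held both ends of the scale. MYO1C intron 29, of a membrane-tension myosin, had 1 in the 3 CFAP20-KO libraries, 1 in rescue and 0.976, 1 and 1 in WT. MYO10 introns 23 and 24, of the filopodial myosin, lay between 0.866 and 0.980, and MYO1E intron 17 had 0.875, 0.924 and 0.750 in CFAP20-KO, 0.774 in rescue and 0.810, 0.777 and 0.875 in WT. MYO9B intron 6, of a myosin that also inactivates RhoA, had 0.536, 0.706 and 0.909 in CFAP20-KO, 0.846 in rescue and 0.531, 0.675 and 0.5 in WT. MYO19, a mitochondrial myosin, was lowest: its canonical intron 3 had 0.000, 0.191 and 0.216 in CFAP20-KO, 0.331 in rescue and 0.103, 0.202 and 0.236 in WT, and its other intron 3, outside the canonical transcript, had 0.0238, 0.0650 and 0.0625 in CFAP20-KO, 0.191 in rescue and 0.0273, 0.230 and 0.0553 in WT.

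The beta-tubulin genes TUBB, TUBB4B, TUBB2A and TUBB6 share a structure of 4 exons, in which exon 2 has 109 bases and exon 3 has 111 in each, and intron 2 was measured in all of them. Between pairs of these genes 70.6% to 89.9% of the bases of exon 2 and 71.2% to 83.8% of those of exon 3 were identical in GRCh38. How the authors treated reads that match more than 1 gene is not stated, so the values are uncertain to that extent. The donor (3 exon and 8 intron bases) and acceptor (20 intron and 3 exon bases) of intron 2 are shown to compare equivalent introns, with the GT and AG of the intron in capitals.
TUBB intron 2 donor: cagGTaagggc
TUBB intron 2 acceptor: cttaactttattctctgtAGgtg
TUBB4B intron 2 donor: ccgGTgaggcc
TUBB4B intron 2 acceptor: acgccctcccgtccccgcAGgcg
TUBB2A intron 2 donor: ctgGTgagtag
TUBB2A intron 2 acceptor: tcagttcttatttcctgcAGgta
TUBB6 intron 2 donor: cgtGTgagtag
TUBB6 intron 2 acceptor: gtggttcttttctcctccAGctc
The genes kept nearly the same order in every library. TUBB intron 2 (chr6:30722646-30722917, 272 bp) had 0.894, 0.870 and 0.875 in CFAP20-KO, 0.956 in rescue and 0.818, 0.915 and 0.859 in WT. TUBB4B intron 2 (chr9:137241830-137241910, 81 bp) had 0.722, 0.604 and 0.635 in CFAP20-KO, 0.728 in rescue and 0.546, 0.672 and 0.536 in WT. TUBB2A intron 2 (chr6:3155736-3156043, 308 bp) had 0.404, 0.367 and 0.298 in CFAP20-KO, 0.568 in rescue and 0.138, 0.368 and 0.436 in WT. TUBB6 intron 2 (chr18:12308796-12310942, 2147 bp) had 0.183, 0.269 and 0.328 in CFAP20-KO, 0.489 in rescue and 0.214, 0.515 and 0.297 in WT. TUBB was above TUBB4B, and TUBB4B above both TUBB2A and TUBB6, in 7 of 7 libraries, while TUBB2A was above TUBB6 in 4 of 7.

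**Figure D4:**
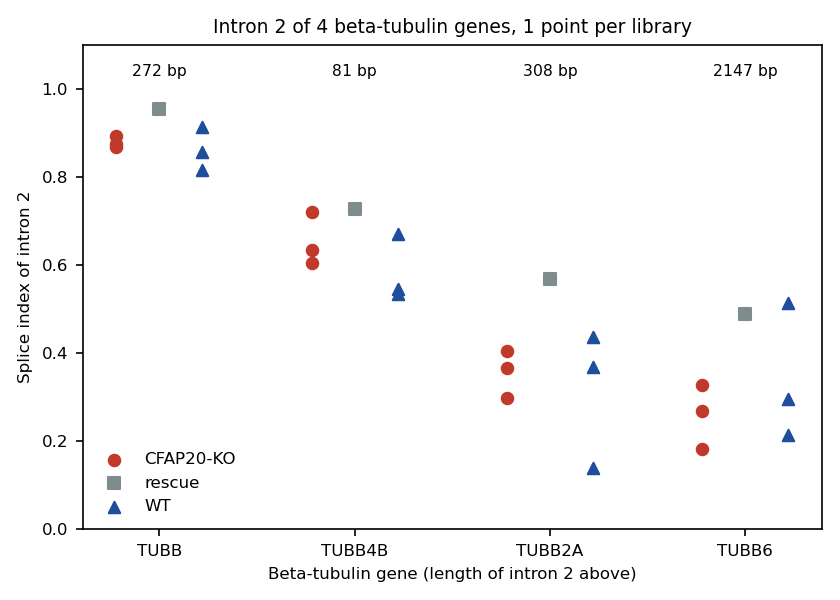
Splice index of intron 2 (vertical axis) in 4 beta-tubulin genes, 1 point per library: circles for CFAP20-KO, squares for rescue and triangles for WT, with the intron's length in bp above. TUBB (0.818 to 0.956) lies above TUBB4B (0.536 to 0.728), and TUBB2A and TUBB6 overlap.

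Within TUBB4B, intron 1 was far above intron 2, with 0.974, 0.969 and 0.943 in CFAP20-KO, 0.988 in rescue and 0.947, 0.982 and 0.922 in WT. Its donor is closer to the base frequencies of all donors in the table than 96.9% of donors, by a log2-odds score summed over 11 positions, against 53.7% for intron 2. The acceptors went the other way, with that of intron 1 above 17.2% of acceptors and that of intron 2 above 52.0%. For intron 2 of TUBB, TUBB2A and TUBB6, donors were above 97.2%, 78.2% and 24.6% of donors. Their acceptors were above 67.9%, 85.5% and 86.8% of acceptors. Neither score followed the order of the index of intron 2 between the 4 genes.
TUBB4B intron 1 donor: aagGTaagttg
TUBB4B intron 1 acceptor: cccgcccgcgtcccttgtAGttt
TUBB intron 1, outside the canonical transcript, had 0.741, 0.837 and 0.819 in CFAP20-KO, 0.890 in rescue and 0.675, 0.903 and 0.825 in WT, and TUBB intron 3 had 0.828, 0.807 and 0.798 in CFAP20-KO, 0.876 in rescue and 0.782, 0.868 and 0.799 in WT. TUBB intron 2 was above both in 7 of 7 libraries. TUBA1C intron 1, of an alpha-tubulin, had 0.634, 0.706 and 0.695 in CFAP20-KO, 0.671 in rescue and 0.651, 0.730 and 0.640 in WT. TUBA4A intron 1, outside the canonical transcript, had 0.214, 0.260 and 0.304 in CFAP20-KO and 0.194 and 0.351 in WT replicates 1 and 3, with no value in the other 2 libraries.

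TUBG1, which encodes the gamma-tubulin of the nucleating ring, had low indices in its first 2 introns. TUBG1 intron 1 had 0.222, 0.361 and 0.380 in CFAP20-KO, 0.586 in rescue and 0.351, 0.606 and 0.418 in WT, and TUBG1 intron 2 had 0.11, 0.362 and 0.262 in CFAP20-KO, 0.421 in rescue and 0.274, 0.4 and 0.232 in WT. TUBGCP2 intron 2, of a ring complex protein, had 0.444, 0.870 and 0.822 in CFAP20-KO, 0.873 in rescue and 0.658, 0.813 and 0.825 in WT. TUBG1 overlaps RETREG3 on the other strand, and whether the counting used strand is not given. In all, 11 member introns overlap a gene on the opposite strand, among them CEP295 intron 27, CEP63 intron 1 and CEP20 intron 1.

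Of the centrosomal genes, CEP20, of a centriolar satellite protein, had the highest mean WT index and CEP63, of a centriole duplication protein, the lowest. CEP63 intron 1 had 0.000, 0.0417 and 0.0323 in CFAP20-KO, 0.0580 in rescue and 0.000, 0.0164 and 0.000 in WT, and it lies outside the canonical transcript. Values of 0.000 are listed as exactly 0, and the reads behind them are unknown. CEP295 intron 27, of a protein that turns centrioles into centrosomes, is a canonical coding intron of 88 bp and had 0.000, 0.0446 and 0.00926 in CFAP20-KO, 0.0761 in rescue and 0.0580, 0.0587 and 0.0132 in WT. CEP89 intron 1 (outside the canonical transcript) had 0.159, 0.144 and 0.204 in CFAP20-KO, 0.406 in rescue and 0.0915, 0.283 and 0.11 in WT. CEP250 intron 2, of the linker that joins the centrosomes, had 0.222, 0.511 and 0.440 in CFAP20-KO, 0.547 in rescue and 0.444, 0.405 and 0.467 in WT.

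The donors of CEP295 intron 27 and MYO18A intron 23 share their first 6 intron bases, and both are shown for that reason, with the acceptors.
CEP295 intron 27 donor: taaGTatgttg
CEP295 intron 27 acceptor: tttcacttttctttcctcAGgtt
MYO18A intron 23 donor: gacGTatgtga
MYO18A intron 23 acceptor: ccctctttggtccaccctAGgag
MYO18A intron 23 (chr17:29098446-29098825) had 1, 0.969 and 0.986 in CFAP20-KO, 0.950 in rescue and 0.818, 0.982 and 1 in WT. Unlike CEP295 intron 27, MYO18A intron 23 overlaps no gene on the opposite strand. By contrast, the CEP295 values carry the uncertainty about strand given for TUBG1. By the log2-odds score its donor was above 6.42% of all donors, and that of CEP295 intron 27 (chr11:93729782-93729869) above 8.99%, while the CEP295 acceptor was above 98.6% of acceptors and the MYO18A acceptor above 42.3%. The 3 members that begin with GTATGT also include KIF11 intron 21. This start was found in 4.62% of members and 2.71% of all introns. Over all introns, those beginning with GTATGT had medians of 0.615 to 0.738 in CFAP20-KO, 0.734 in rescue and 0.625 to 0.714 in WT, and those beginning with GTAAGT had 0.611 to 0.743 in CFAP20-KO, 0.748 in rescue and 0.619 to 0.708 in WT. Across members rho between donor score and index was -0.00 to 0.06 and between acceptor score and index -0.22 to -0.06, and over all introns they were 0.09 to 0.11 and 0.03 to 0.06.

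No member intron differed between CFAP20-KO and WT past the threshold. With limma over the 6537 introns that had values in all 6 libraries, and Benjamini-Hochberg adjustment at 0.05, 0% of introns were called, and 0 of the 63 members tested. With libraries centred on their medians, 0.52% of introns were called when the replicate number was a block and 0.918% when the run was a covariate, an alternative chosen after seeing the data, and 0 members in either. At an unadjusted p under 0.05, 5.71% of all introns passed and 1 of 63 members, CEP20 intron 1. The median difference over members was 0.00305, with 32 means higher in CFAP20-KO and 31 lower. Over all introns 48.6% were higher and 48.7% lower.

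The groups did not overlap for 5 of the 63 members, 7.94%, against 11.1% of all introns: 1 was higher in CFAP20-KO, against 5.92% of all introns, and 4 were lower, against 5.14%. KIFC1 intron 6 (chr6:33404130-33404851) had 0.471, 0.624 and 0.571 in CFAP20-KO, 0.627 in rescue and 0.667, 0.758 and 0.747 in WT, a difference of -0.169 ± 0.072 (SE, limma, adjusted p = 0.853). All CFAP20-KO libraries were below all WT libraries, and rescue was between the groups. KIFC1 intron 2 (chr6:33398167-33398287) had 0.773, 0.842 and 0.786 in CFAP20-KO, 0.893 in rescue and 0.847, 0.898 and 0.948 in WT, a difference of -0.0977 ± 0.042 (SE, limma, adjusted p = 0.853). CFAP20-KO replicate 2 was close to the lowest WT library there, and rescue lay among the WT libraries. The splice sites of both KIFC1 introns are shown because their groups did not overlap.
KIFC1 intron 6 donor: gagGTaagggc
KIFC1 intron 6 acceptor: ttgtgttctcttctgggcAGagg
KIFC1 intron 2 donor: aagGTgagctg
KIFC1 intron 2 acceptor: ttgtctttatctttccccAGaaa
TUBB3 intron 1 (chr16:89923459-89931680) belongs to a transcript annotated as non-coding of the beta-tubulin gene best known from neurons. It had 0.160, 0.159 and 0.204 in CFAP20-KO, 0.245 in rescue and 0.211, 0.397 and 0.341 in WT, a difference of -0.142 ± 0.063 (SE, limma, adjusted p = 0.853). CFAP20-KO replicate 3 and WT replicate 1 were almost level. KIF11 intron 21 (chr10:92650518-92653664), the last intron of its gene, had 0.880, 0.873 and 0.902 in CFAP20-KO, 0.939 in rescue and 0.968, 0.957 and 0.909 in WT, a difference of -0.0596 ± 0.026 (SE, limma, adjusted p = 0.853). There CFAP20-KO replicate 3 and WT replicate 3, of the same run, were almost level. The difference was -0.0877 in run A and -0.0218 in run C. KIF20A intron 5 (chr5:138182462-138182585) was the member that was higher without overlap, with 0.605, 0.629 and 0.533 in CFAP20-KO, 0.514 in rescue and 0.364, 0.531 and 0.497 in WT, a difference of 0.125 ± 0.079 (SE, limma, adjusted p = 0.912). Its lowest CFAP20-KO value and highest WT value differed by little.

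CEP20 intron 1 (chr16:15884206-15888557) was singled out after its values were seen, as the member with the unadjusted p under 0.05. It had 0.0816, 0.347 and 0.421 in CFAP20-KO, 0.469 in rescue and 0.417, 0.701 and 0.602 in WT, a difference of -0.290 ± 0.120 (SE, limma, adjusted p = 0.853). CFAP20-KO replicate 3 and WT replicate 1 overlapped, and within runs the difference was -0.335 in run A and -0.218 in run C.

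**Figure D5:**
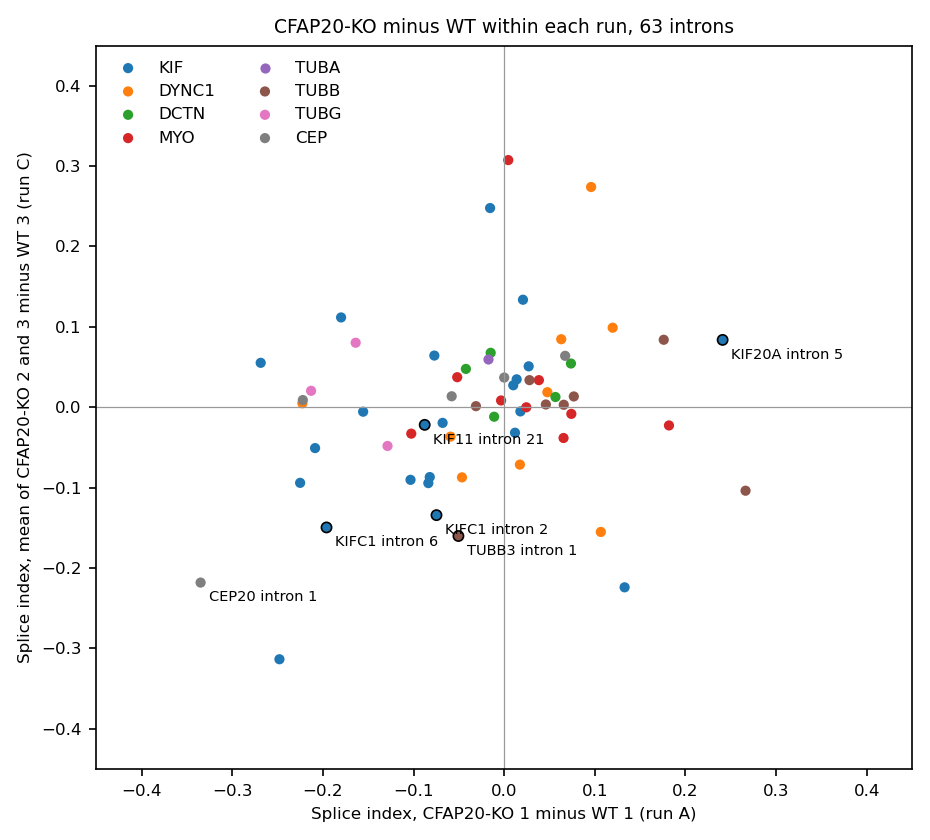
CFAP20-KO minus WT splice index of 63 introns within run A (horizontal axis) and within run C (vertical axis), coloured by family. The 5 outlined introns are those whose CFAP20-KO and WT values did not overlap, and CEP20 intron 1 is also named: it lies at -0.335 and -0.218.

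By family, the 23 kinesin introns had a median difference of -0.0530, with 15 means lower in CFAP20-KO and 8 higher. Without CFAP20-KO replicate 1 that median was -0.00545, and the medians within runs were -0.0771 in run A and -0.0194 in run C. Lower means in CFAP20-KO were found for 5 of 5 introns of KIF2C, 3 of 3 of KIF11 and 5 of 7 of KIFC1. In KIF20A 4 of 4 introns had higher means. Some of these signs did not hold within runs. KIF20A intron 2 had a difference of means of 0.00442, but -0.0822 in run A and -0.0868 in run C. KIF2C intron 1 had -0.0192, but 0.0270 in run A and 0.0510 in run C. KIF20A intron 5 was higher in both, by 0.241 and 0.0838. Introns of a gene share its transcripts and are not replicates. The 5 dynactin introns all had higher means in CFAP20-KO, with a median difference of 0.0224, but the medians within runs were -0.0111 in run A and 0.0477 in run C. Of the 9 myosin introns 7 had higher means, with a median difference of 0.0291, which was 0.0244 in run A and 0 in run C. The 3 gamma-tubulin group introns all had lower means, with -0.0571, and that difference was -0.164 in run A and 0.0205 in run C.

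In the single rescue library, 33 of 64 members were above WT replicate 2 of the same run and 30 below, with a median difference of 0.00679. Over all introns 57.6% were above and 38.9% below. Among the members that did not overlap, rescue was below WT replicate 2 in all 5, at 0.627 against 0.758 for KIFC1 intron 6 and 0.245 against 0.397 for TUBB3 intron 1. The gaps were smaller at KIFC1 intron 2 (0.893 against 0.898), KIF11 intron 21 (0.939 against 0.957) and KIF20A intron 5 (0.514 against 0.531). KIF20A intron 5 was higher in CFAP20-KO than in WT, so rescue differed from WT replicate 2 in the opposite direction there. The 4 lower introns were chosen because all their WT values, WT replicate 2 among them, were above all CFAP20-KO values. That choice favours a high WT replicate 2, so the count of 5 is no test of rescue. With 1 rescue library there is no replicate check.

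Related genes were taken from 4 lists, which lie outside the symbol families except for the TUBGCP genes of the centrosome list. The 4 centrosome introns thus include the member TUBGCP2 intron 2, whose difference of -0.0533 enters their median. Of 42 microtubule-associated and severing proteins listed, 10 had introns in the table, 30 in all, and 0 were called or non-overlapping. Of 32 centrosome and nucleation genes 4 had 1 intron each, and of 26 dynein and kinesin partners 6 had 17 introns, again with 0 called and 0 non-overlapping. Over all introns 0% were called and 11.1% were non-overlapping, so counts of 0 in lists this small say little about them. Of 23 myosin partners 16 had 110 introns, of which 109 were tested, 0 called and 4 were non-overlapping, all higher in CFAP20-KO (3.67%, against 5.92% of all introns). These are named because of their values. MYLK intron 6, of myosin light chain kinase, had 0.581, 0.5 and 0.510 in CFAP20-KO, 0.624 in rescue and 0.138, 0.369 and 0.143 in WT. ACTN1 intron 1, of alpha-actinin, had 0.306, 0.384 and 0.346 in CFAP20-KO, 0.300 in rescue and 0.0893, 0.199 and 0.137 in WT. TPM2 intron 7, of a tropomyosin, and ACTN4 intron 13 were the others, with mean indices of 0.906 and 0.945 in CFAP20-KO and 0.736 and 0.917 in WT. The median difference was 0.0159 over the microtubule-associated introns (20 of 30 means higher in CFAP20-KO) and -0.0284 over the 4 centrosome introns (3 lower). It was -0.0927 over the dynein and kinesin partners (11 of 17 lower) and 0.0122 over the myosin partners (69 of 109 higher). Within runs, the microtubule-associated median was -0.0135 in run A and 0.0496 in run C, and the centrosome median -0.0527 and 0.0616. The dynein and kinesin partners had -0.178 in run A and -0.0186 in run C, and the myosin partners -0.0155 and 0.0538.

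Nascent RNA signal over gene bodies was a second readout, for genes that lay in the deposited windows around replication origins. It was found for 21 genes of these families, of which 19 passed the filter on low signal and 3 also had introns above. Rescue was not analysed here. Fewer cells that make an RNA and less RNA per cell cannot be told apart in such bulk libraries. TUBB had a signal of 242, 148 and 153 in CFAP20-KO and 214, 146 and 208 in WT, with a difference of log2(signal + 0.0679) of -0.08 ± 0.35 (SE, limma, adjusted p = 0.981). KIF13A had 2.67, 3.16 and 3.22 in CFAP20-KO and 1.79, 3.83 and 2.19 in WT (log2 difference 0.28 ± 0.34, limma, adjusted p = 0.898), and CEP250 had 7.33, 7.43 and 7.34 in CFAP20-KO and 10.1, 4.64 and 11.2 in WT (log2 difference -0.13 ± 0.37, limma, adjusted p = 0.975). Groups overlapped in all 3.

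None of the 19 genes was called, and 0% of the 1710 genes tested were. The median log2 difference was 0.20 over the 19 genes, 14 higher and 5 lower, and 0.17 over all genes. With the replicate number as a block 6.78% of all genes were called and 0 of the 19, and with the run as a covariate 13.4% of all genes and 2 of the 19: CEP250 (adjusted p = 0.049, lower in CFAP20-KO) and MYO5A (adjusted p = 0.048, higher), the motor that carries melanosomes and vesicles. KIF1B, a kinesin of mitochondrial and vesicle transport, was the tested family gene without overlap, with 3.8, 3.34 and 3.10 in CFAP20-KO and 2.45, 2.57 and 2.34 in WT (log2 difference 0.46 ± 0.25, limma, adjusted p = 0.669), against 18.1% of all genes without overlap. Of 23 cell type markers 3 were found in these windows. RLBP1, a retinal pigment epithelium gene, had a signal of 0.107, 0.0163 and 0.0427 in CFAP20-KO and 0.356, 0.127 and 0.174 in WT (log2 difference -1.21 ± 0.40). MAP2, a neuronal microtubule-associated protein, had 0.430, 0.878 and 0.855 in CFAP20-KO and 1.112, 2.41 and 1.36 in WT (log2 difference -1.09 ± 0.40). Both were lower in CFAP20-KO without overlap. RLBP1 lies near the floor: its mean CFAP20-KO signal of 0.0552 is under the filter of 0.0679. It passed the filter only through its WT mean of 0.219, the group where it is high, so its p-values are no support for a difference. With limma the adjusted p was 0.463 for RLBP1 and 0.490 for MAP2, against 0.013 and 0.011 with the replicate block and 0.030 and 0.048 with the run covariate. SYT1, of synaptic vesicles, overlapped, with 0.994, 2.81 and 3.30 in CFAP20-KO and 1.85, 3.98 and 1.81 in WT. The part of these markers in the other results was not tested, and 3 genes do not allow a check of the cell type.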

How the data were processed

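The splice index of each intron was deposited by the authors as a fraction between 0 and 1, 1 column per library; how it was defined, and how introns were filtered, is not stated. Alignment with STAR 2.7.7a and use of HOMER 4.8.2 and hg38 are listed, with no order, per the submitters' processing notes. The signal in 200 bp bins around origins was deposited by the authors without a stated normalization. The differences between libraries deposited by the authors (unit: other, not used in a test) equalled those recomputed.

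Gene symbols matched 2971 gene identifiers, and 8 had none. Intron starts were read as 0-based, and 6609 of 6709 introns then began with GT and ended with AG on hg38. Canonical transcripts, introns and strands came from GENCODE 44, where the transcripts of 63 members were found (the 2 introns of MYO1C were placed by coordinates) and 62 intron numbers matched. Splice site scores are log2-odds against equal base frequencies, from all introns of the table.

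Index differences were fitted with limma 3.58.1 (R 4.3.3, trend and robust) to 3 CFAP20-KO and 3 WT libraries, without the block, over the 6537 introns complete in them, which leaves out 2 members (DYNC1LI2 intron 2 and TUBA4A intron 1). Gene body signal was averaged over protein-coding genes longer than 3000 bp with no neighbour of the same strand within 2000 bp, up to 100000 bp from the start site, and fitted as log2(signal + 0.0679) for means above that value. Both fits were also run on simulated data. Those values were drawn independently for each library without run differences, so they do not check the fits against such differences. Deviations from the group mean had r = 0.508, 0.207 and 0.214 between same-numbered libraries. CFAP20-KO replicate 2 with WT replicate 3 had 0.250, and CFAP20-KO replicate 3 with WT replicate 2 had 0.219. These values therefore do not mark the libraries numbered 2 and 3 as pairs, and the labels do not say so either. Replicate numbers were treated as pairs in the blocked fits only as an alternative, and pairs 1 and 3 also share a run. The named introns were every member past the threshold (there was none), members whose groups do not overlap, the extremes of each family, the 6 genes with most introns and a fixed set of genes, of which 5 had no intron in the table. The members, the lists and the tests were chosen with earlier results of these data known. Alternatives were other scales, covariates and filters, and leaving out each library.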

Additional observations from a re-analysis of the deposited data

How the results depend on the processing

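The count of introns called by limma was 0 higher and 0 lower in every setting, and without each library in turn (0 to 0), except 2. With the replicate block and libraries centred 17 were higher and 17 lower (0.52% of introns), and with the run covariate and libraries centred, an alternative chosen after seeing the data, 36 were higher and 24 lower (0.918%). No member was called in either. The 6 introns whose differences are given kept their direction in all 90 alternative fits. This is no sign of stability, since all 6 were chosen by their values in these same libraries: 5 because their groups did not overlap and CEP20 intron 1 by its unadjusted p. The median member difference was -0.0273 to 0.0164 without each library, so its sign depends on which library is left out, and it was -0.00512 with libraries centred. The family medians without each library were -0.0620 to -0.00545 for kinesins, -0.0386 to 0.0107 for dynein, 0.00897 to 0.0411 for dynactin and 0.00719 to 0.0392 for myosins. With the run covariate the dynein median, 0.0119 in the fit without it, was -0.0333, and -0.0492 with libraries centred as well; the myosin median was then -0.00540. Without each library the medians were -0.132 to 0.0104 for the gamma-tubulin group, -0.0387 to 0.0127 for CEP introns, -0.0341 to 0.0346 for beta-tubulins and -0.0123 to 0.0327 for TUBA1C, and the cause was not tested. For gene body signal, limma called 0 higher and 0 lower, 0 higher and 2 lower with no filter on low signal, 68 higher and 48 lower with the replicate block, and 135 higher and 94 lower with the run covariate; the cause was not tested. Beside these counts and the RLBP1 and MAP2 calls, the replicate block changed no other call. Read depth behind each index is unknown, and indices of exactly 0 or 1 may rest on few reads.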
